A study of Mus musculus with 8 samples.

Results

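The genes described here are 10 genes of MHC class II antigen presentation and of Langerhans and dendritic cells, taken by symbol from a table of 25378 genes: H2-Aa, H2-Ab1, H2-Eb1, Cd74, H2-DMa, H2-DMb1, Ciita, Cd207, Cd209a and Flt3. All 10 were found. Their RNA was measured by bulk sequencing of back skin lesions from 2 groups of 4 wild type C57BL/6 females aged 6 weeks. Both groups received 5 nmol of MC903 (calcipotriol, a vitamin D analog that gives an inflammation resembling atopic dermatitis) on the back for 10 days. One group then received propionic acid at 1 mM on the skin 1 h after MC903, a short-chain fatty acid that gut and skin bacteria make. The other received a control whose composition is not stated. Lesions were taken on day 11, and no skin without MC903 is among the samples. The labels call the samples biological replicates, taken here to mean separate mice. If they are not, p-values measure only the spread between these samples.

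MHC class II molecules are pairs of an alpha and a beta chain that carry peptides from the endosome to the cell surface, where CD4 T cells read them. The invariant chain Cd74 guards the groove until the DM molecule exchanges its remnant for a peptide, and the transactivator Ciita switches on the whole set. In skin the strongest class II expression is that of Langerhans cells in the epidermis, which carry the lectin langerin (Cd207), and of dermal dendritic cells, while macrophages, B cells and, under interferon gamma, keratinocytes can express it too. C57BL/6 mice carry the b haplotype, which lacks a working E alpha chain, so H2-Eb1 RNA there has no partner. Class II genes share a promoter module of an X box bound by the RFX complex and a Y box bound by NF-Y, on which Ciita docks.

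Of the 7 genes whose promoters were searched, 3 carry both boxes in the usual order, and these promoters are shown for that reason. Whether the boxes bear on the RNA levels was not tested. Windows run from 250 bases before to 50 bases after the RefSeq start in GRCm38.p6, read on the gene's strand. Capitals mark the X core GNAACT and the Y core TGATTGG of each pair, and other matches to the X core are left in lower case.
H2-Aa, chr17:34287774-34288073, minus strand: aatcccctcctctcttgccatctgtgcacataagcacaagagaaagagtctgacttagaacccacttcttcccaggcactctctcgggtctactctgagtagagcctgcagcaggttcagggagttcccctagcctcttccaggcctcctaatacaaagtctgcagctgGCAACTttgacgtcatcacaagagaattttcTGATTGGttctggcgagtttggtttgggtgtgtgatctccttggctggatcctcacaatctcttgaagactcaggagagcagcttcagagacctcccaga
H2-Eb1, chr17:34305617-34305916, plus strand: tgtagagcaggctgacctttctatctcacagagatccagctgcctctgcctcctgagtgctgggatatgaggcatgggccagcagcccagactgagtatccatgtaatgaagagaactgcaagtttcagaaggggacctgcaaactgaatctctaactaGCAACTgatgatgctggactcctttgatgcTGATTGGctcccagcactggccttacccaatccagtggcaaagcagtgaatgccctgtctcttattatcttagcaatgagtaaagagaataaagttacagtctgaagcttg
H2-DMb1, chr17:34152941-34153240, plus strand: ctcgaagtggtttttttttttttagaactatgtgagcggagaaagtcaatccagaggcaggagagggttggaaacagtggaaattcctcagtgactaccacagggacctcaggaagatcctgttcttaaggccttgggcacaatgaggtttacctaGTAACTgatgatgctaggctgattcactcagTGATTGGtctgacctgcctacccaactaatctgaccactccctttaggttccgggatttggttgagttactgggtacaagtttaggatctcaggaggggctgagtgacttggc
The gap between the cores was 25 bases in H2-Aa, 24 in H2-Eb1 and 25 in H2-DMb1, and the Y core ended 43, 54 and 56 bases before the start. Both cores were searched on both strands and cannot overlap within a pair, and their letters were picked with these windows in view. Of 32851 windows of 300 bases counted from the RefSeq table, 42.8% held the X core and 7.82% the Y core. An X core followed by a Y core on the same strand, with 15 to 35 bases between, was held by 0.201%. RefSeq windows were searched for 7 of the 10 genes. No window was found for H2-Ab1 and Ciita, and Cd74 was left out of the search. Whether Cd74 carries the pair is thus not known here. The windows of H2-DMa (2 starts), Cd207, Cd209a and Flt3 held no such pair. Among 4 related class II genes, H2-Eb2 held the pair, and H2-Oa, H2-Ob and H2-DMb2 held the Y core alone. A match is a description of letters, not a measured binding site.

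The mean of all 10 genes was higher in propionic acid skin than in control skin, by 1.37 times for Cd209a to 1.97 times for Cd207, and none passed the test across all genes. The chains and the invariant chain stood at 1.71 to 1.84 times the control mean. Values are FPKM, fragments per kilobase of gene scaled to the size of the library, as deposited. A gene was tested with limma on log2(FPKM + 1) where at least 4 of the 8 libraries reached 1 FPKM, which left 12598 genes and 9 of the 10, all but Flt3. Benjamini-Hochberg adjusted p ran from 0.569 to 0.821 for these 9, against a threshold of 0.05. Of all genes tested, 0 passed (percent called, 0%), and 792 (6.29%) had an unadjusted p under 0.05, 513 higher (4.07%) and 279 lower (2.21%), a split that median-of-ratios scaling made 418 and 370. With voom on whole reads recovered from the FPKM steps, 0 passed and 749 (5.95%) had an unadjusted p under 0.05. Among the 9 tested class II and Langerhans cell genes, 8 had an unadjusted p under 0.05, all higher. Their median log2 fold change was 0.81, against 0.01 over all genes tested, where 51.7% had a higher mean. Several of the genes share a transactivator or cells of origin, so the 9 are not independent of each other, and they were chosen with results of these data known.

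**Figure D1:**
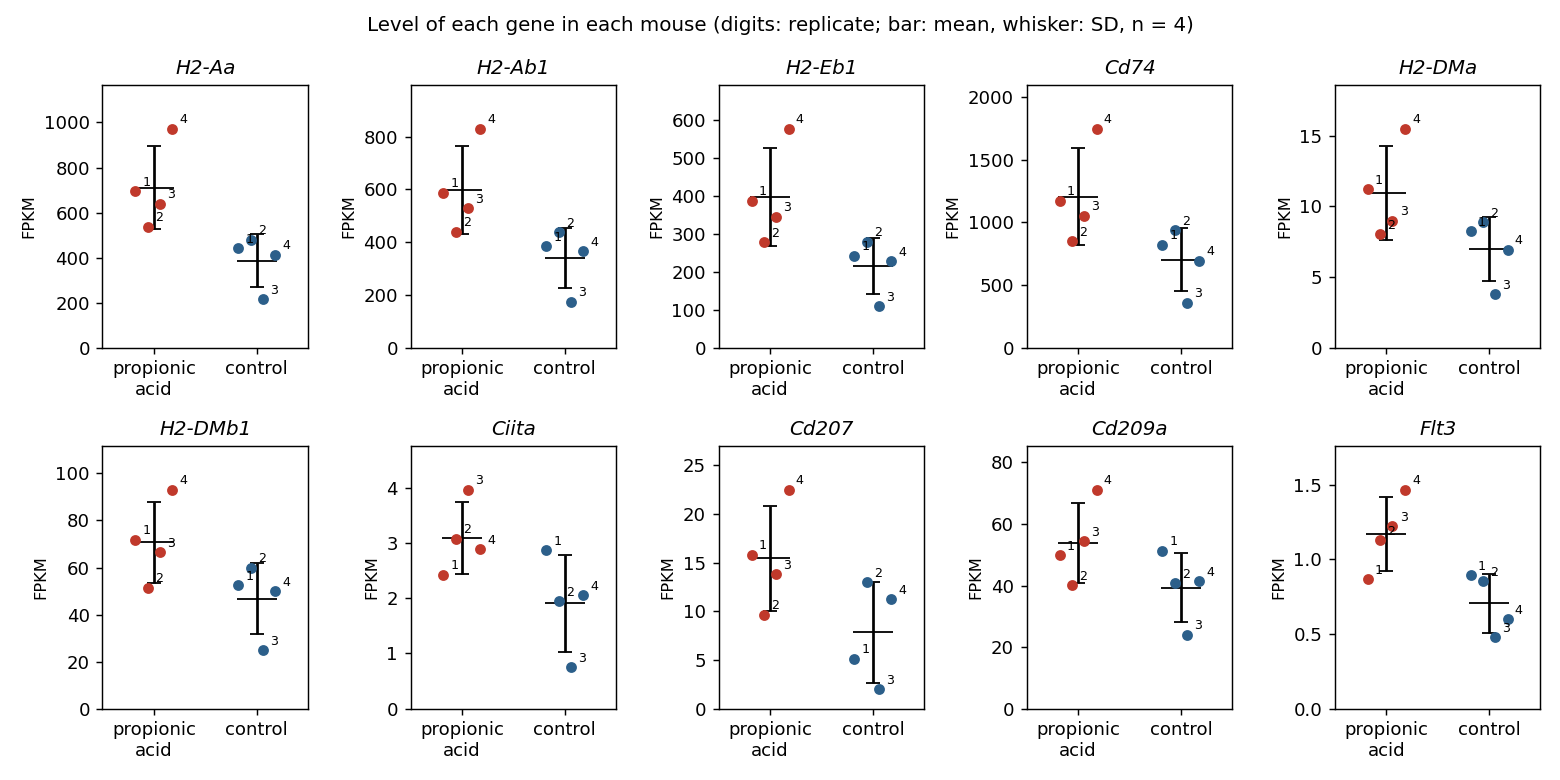
FPKM of the 10 genes in each mouse, with propionic acid mice in red on the left and control mice in blue on the right of each panel; digits give the replicate, the bar the mean and the whiskers the SD (n = 4). Control replicate 3 is the lowest mouse in all 10 panels, and propionic acid replicate 4 the highest in 9.

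Libraries were near equal in depth. Reads recovered from the FPKM steps totalled 39180665 to 40194111 in propionic acid and 39034193 to 40084605 in control libraries. The deposited values summed to 490191 to 566669 FPKM in propionic acid and 486414 to 555246 FPKM in control libraries. Genes of fat and muscle, which lie below the dermis, were read as a measure of what else the lesion samples held. The 8 adipocyte markers summed to 937 to 1943 FPKM in propionic acid skin and 588 to 1103 FPKM in control skin, with a median log2 fold change of 0.91 and 8 of 8 higher. The 9 skeletal muscle markers summed to 3774 to 7242 FPKM in propionic acid skin and 3661 to 5408 FPKM in control skin, with 7 of 9 higher. Their part in the results below was not tested. In bulk skin, fewer cells of a type and less RNA per cell cannot be told apart.

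H2-Aa, the alpha chain of the I-A molecule, had 695, 538, 640.3 and 972 FPKM in propionic acid replicates 1 to 4, and 441, 479.5, 215 and 413 FPKM in control replicates 1 to 4. Every propionic acid mouse lay above every control mouse. The log2 fold change was 0.91 with a standard error (SE) of 0.27 (limma unadjusted p = 0.00877, adjusted p = 0.569). Its partner, the beta chain H2-Ab1, had 588, 440.0, 529.7 and 829.9 FPKM in propionic acid skin and 384, 438, 175 and 366 FPKM in control skin. Here too the groups did not overlap, but propionic acid replicate 2 and control replicate 2 were nearly equal. The log2 fold change was 0.85 with an SE of 0.30 (limma adjusted p = 0.725). These were the only 2 of the 10 genes without overlap between groups. Of all genes tested, 2.06% had every propionic acid value above every control value and 1.1% the opposite.

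H2-Eb1, the E beta chain, had 387, 278, 345 and 577 FPKM in propionic acid skin and 242, 280.0, 110.4 and 229 FPKM in control skin. Cd74, the invariant chain and the most abundant of the 10, had 1173, 847, 1053 and 1745 FPKM in propionic acid skin and 821, 935, 359 and 695 FPKM in control skin. In both genes 3 of the 4 propionic acid mice exceeded every control mouse, and propionic acid replicate 2 lay below control replicate 2. The log2 fold change was 0.91 with an SE of 0.31 for H2-Eb1 (limma adjusted p = 0.724) and 0.81 with an SE of 0.32 for Cd74 (limma adjusted p = 0.77).

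The proportions among the chains varied less than their level. H2-Aa stood at 1.17 to 1.22 times H2-Ab1 in FPKM in propionic acid mice and at 1.09 to 1.23 times in control mice. H2-Eb1 stood at 0.632 to 0.695 times H2-Ab1 in propionic acid mice and at 0.625 to 0.639 times in control mice. Cd74 stood at 1.93 to 2.1 times H2-Ab1 in propionic acid mice and at 1.9 to 2.14 times in control mice. The log2 ratio of Cd74 to H2-Ab1 was 1.00 ± 0.05 in propionic acid skin and 1.04 ± 0.08 in control skin (SD, n = 4 each), a difference of -0.04 (exact permutation test, 2-sided, p = 0.457, and 0.457 after adjustment over the 3 ratios tested). With 70 regroupings the smallest p this test can give is 0.0286.

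The DM molecule, which frees the groove for peptide, is made of H2-DMa and H2-DMb1. H2-DMb1 had 71.9, 51.3, 66.5 and 93.2 FPKM in propionic acid skin and 52.5, 59.9, 24.8 and 49.9 FPKM in control skin. H2-DMa had 11.2, 8.02, 8.98 and 15.5 FPKM in propionic acid skin and 8.24, 8.86, 3.81 and 6.94 FPKM in control skin. In both genes 3 propionic acid mice exceeded every control mouse and replicate 2 did not. The log2 fold changes were 0.63 for H2-DMb1 and 0.59 for H2-DMa, with SEs of 0.27 and 0.26 (limma adjusted p = 0.786 for each). The low FPKM of H2-DMa beside H2-DMb1 comes with a longer gene in the authors' scaling. A read was worth 6.48 times less FPKM in H2-DMa, and in recovered reads H2-DMa stood at 0.875 to 1.08 times H2-DMb1 in propionic acid mice and 0.903 to 1.02 times in control mice. H2-DMb1 was lower relative to H2-Ab1 in propionic acid mice, at 0.112 to 0.126 times in FPKM, than in control mice, at 0.136 to 0.142 times. These 2 sets of ratios did not overlap, but the ratio was chosen after its values were seen and was not tested.

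Ciita, the transactivator on which class II transcription depends, had 2.43, 3.08, 3.97 and 2.89 FPKM in propionic acid skin and 2.87, 1.95, 0.749 and 2.06 FPKM in control skin. Between 292 and 1540 recovered reads stood behind each value. Propionic acid replicate 3 was the highest mouse and control replicate 3 the lowest. The log2 fold change was 0.54 with an SE of 0.23 (limma adjusted p = 0.786). Across the 8 mice Ciita had a lower correlation with the chains than the DM genes had. Its Pearson r with their mean log2 level (H2-Aa, H2-Ab1, H2-Eb1 and Cd74) was 0.775 and its Spearman rho 0.643, against r of 0.987 for H2-DMa and 0.989 for H2-DMb1. Without control replicate 3 and propionic acid replicate 4, the farthest mice on that level, r was 0.382 for Ciita, 0.905 for H2-DMa and 0.934 for H2-DMb1 over 6 mice. These correlations describe the same libraries that carry the group difference, and no p is given.

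Cd207, langerin, forms the Birbeck granules of Langerhans cells. It had 15.8, 9.63, 13.8 and 22.5 FPKM in propionic acid skin and 5.11, 13.0, 2.0 and 11.2 FPKM in control skin, from 122 to 1387 recovered reads. The propionic acid mice were all at 9.63 FPKM or more, whereas control replicates 1 and 3 lay below every other mouse. The log2 fold change was 1.08 with an SE of 0.46 and a 95% confidence interval of 0.05 to 2.11 (limma, unadjusted interval, adjusted p = 0.786). It was the largest among the 9 tested genes and the least precise. The keratin Krt10, a marker of the upper epidermal layers named after its values were seen, was also lowest in control replicates 1 and 3. It had 426, 322, 90.6 and 94.5 FPKM in propionic acid skin and 46.4, 583, 30.6 and 256 FPKM in control skin, and its part in the Cd207 values was not tested. Without control replicate 3 the log2 fold change of Cd207 was 0.64, and without both control replicates 1 and 3 it was 0.27.

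The same control mice stood apart when Cd207 was set against the chains. Cd207 was at 2.69%, 2.19%, 2.61% and 2.71% of the H2-Ab1 FPKM in propionic acid replicates 1 to 4, and at 1.33%, 2.96%, 1.14% and 3.07% in control replicates 1 to 4. The propionic acid mice thus lay between control replicates 1 and 3, below them, and control replicates 2 and 4, above them. The log2 ratio, with 1 FPKM added to each gene, averaged -5.20 ± 0.12 in propionic acid skin and -5.43 ± 0.57 in control skin (SD, n = 4 each), a difference of 0.23 (exact permutation test, 2-sided, p = 0.429, adjusted over the 3 ratios 0.457). Without control replicates 1 and 3 the difference was -0.26.

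Other genes that mark Langerhans cells or that they need were split in direction. Of the 11 listed and tested, Cd207 included, 6 were higher and 5 lower in mean log2 value, with a median log2 fold change of 0.01, and Cd207 was the one with an unadjusted p under 0.05. Epcam, an adhesion molecule that keratinocytes and hair follicles express as well, averaged 46.2 ± 3.25 FPKM in propionic acid skin and 48.1 ± 18.5 FPKM in control skin (SD, n = 4 each). Il34, the keratinocyte cytokine that keeps Langerhans cells alive through Csf1r, averaged 7.85 ± 1.24 FPKM with propionic acid and 7.17 ± 2.38 FPKM in controls. Id2, a factor that Langerhans cells require, averaged 69.9 ± 16.0 FPKM with propionic acid and 54.9 ± 13.0 FPKM in controls, Runx3, another, 2.96 ± 0.682 FPKM with propionic acid and 4.84 ± 2.64 FPKM in controls, and the receptor Tgfbr1 6.92 ± 1.71 FPKM with propionic acid and 8.39 ± 1.65 FPKM in controls (limma adjusted p = 0.841, 0.846 and 0.86). Most of these genes are also made by keratinocytes, T cells or macrophages, so among the listed genes Cd207 is the one particular to Langerhans cells and langerin-positive dermal dendritic cells.

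Cd209a, a lectin of dermal and monocyte-derived dendritic cells, had 49.8, 40.1, 54.4 and 71.2 FPKM in propionic acid skin and 51.3, 40.7, 24.0 and 41.4 FPKM in control skin. Only propionic acid replicates 3 and 4 exceeded every control mouse. The log2 fold change was 0.46 with an SE of 0.24 and a 95% confidence interval of -0.07 to 1.00 (limma, adjusted p = 0.821), the smallest among the 9. Cd209a stood at 3.15 to 4.17 times Cd207 in FPKM in propionic acid mice, and at 10.0, 3.13, 12.0 and 3.69 times in control replicates 1 to 4, so control replicates 1 and 3 were again apart. The log2 ratio differed by -0.61 (exact permutation test, 2-sided, p = 0.343, adjusted over the 3 ratios 0.457) and by 0.08 without those 2 mice. Cd209a belongs to a cluster of related genes. Its neighbours Cd209d and Cd209e, which were read out for this reason, averaged 147 ± 60.3 and 79.1 ± 22.2 FPKM in propionic acid skin and 201 ± 55.6 and 104 ± 22.0 FPKM in control skin (SD, n = 4 each), and neither difference passed the test (limma adjusted p = 0.841 and 0.823). The cluster was split: on the log2 scale Cd209b differed by -0.33, Cd209c by 0.08, Cd209f by 0.15 and Cd209g by 0.26, and none of these passed either. How reads that match several such copies were counted is not known here, so the single values are to be read as uncertain, also for H2-DMb1 beside H2-DMb2 and H2-Eb1 beside H2-Eb2.

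Flt3, the receptor for the growth factor that dendritic cell precursors need, was the least abundant. It had 0.866, 1.13, 1.22 and 1.47 FPKM in propionic acid skin and 0.892, 0.852, 0.479 and 0.599 FPKM in control skin, from 119 to 368 recovered reads. Only 3 libraries reached 1 FPKM, so it entered no test across genes. Propionic acid replicates 2 to 4 exceeded every control mouse and replicate 1 did not. The mean log2(FPKM + 1) differed by 0.35 (exact permutation test, 2-sided, p = 0.0571). With no filter on low values, limma gave an adjusted p of 0.852.

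**Figure D2:**
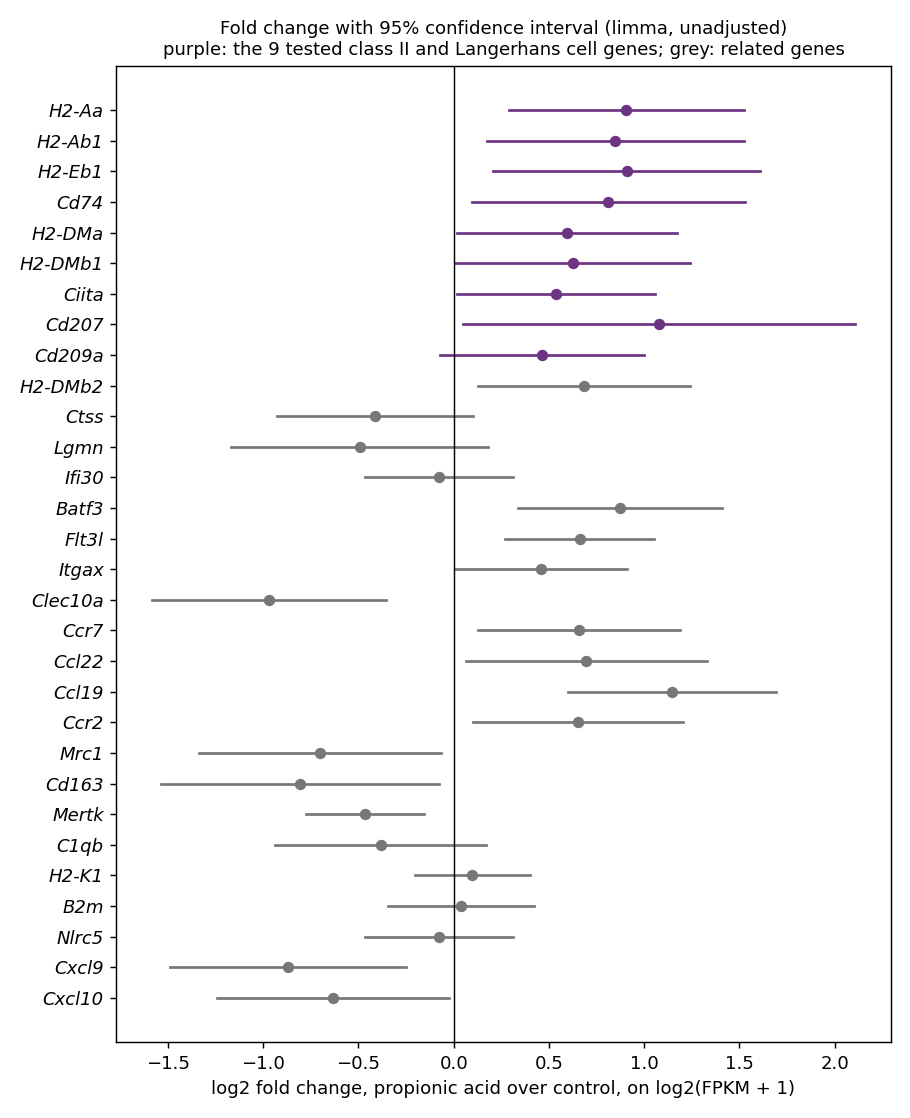
Log2 fold change of propionic acid over control on log2(FPKM + 1), with the unadjusted 95% confidence interval from limma, for the 9 tested class II and Langerhans cell genes (purple) and related genes (grey). The points of all 9 lie to the right of 0, and the interval of Cd209a crosses it. The intervals of Clec10a, Mrc1, Cd163, Mertk, Cxcl9 and Cxcl10 lie wholly to the left.

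Ordered by level per length, Cd74 led in all 8 mice, followed by H2-Aa, H2-Ab1 and H2-Eb1. H2-DMb1 came next, at 70.7 ± 17.3 FPKM in propionic acid skin and 46.8 ± 15.3 FPKM in control skin, and exceeded Cd209a in all 8 mice. Cd209a averaged 53.9 ± 13.0 FPKM in propionic acid skin and 39.3 ± 11.3 FPKM in control skin. Cd207, at 15.4 ± 5.37 FPKM with propionic acid and 7.83 ± 5.15 FPKM in controls, and H2-DMa, at 10.9 ± 3.32 FPKM with propionic acid and 6.96 ± 2.25 FPKM in controls, differed by less than the SD of Cd207, and their order was turned round in control replicates 1 and 3. Ciita, at 3.09 ± 0.647 with propionic acid and 1.91 ± 0.876 in controls, and Flt3, at 1.17 ± 0.248 with propionic acid and 0.705 ± 0.199 in controls, came last (SD, n = 4 each).

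The other class II chain genes had higher means, whereas most general genes of the pathway had lower ones. Of 17 tested from a list of 22, which adds proteases, lysosomal proteins and transcription factors, 5 were higher and 12 lower in mean log2 value, with a median log2 fold change of -0.08 and 1 unadjusted p under 0.05. That one was H2-DMb2, the other DM beta chain, with 14.3, 10.3, 10.1 and 16.4 FPKM in propionic acid skin and 8.14, 10.1, 4.14 and 8.62 FPKM in control skin. Its groups did not overlap, by a narrow margin between propionic acid replicate 3 and control replicate 2 (log2 fold change 0.69, SE 0.25, limma adjusted p = 0.729). H2-Ob, the beta chain of the DM inhibitor H2-O, did not reach the filter. It was chosen after its values were seen, at 0.750, 1.41, 0.890 and 1.36 FPKM in propionic acid skin and 0.386, 0.263, 0.157 and 0.523 FPKM in control skin, from 19 to 168 recovered reads. These groups did not overlap either (adjusted p = 0.634 in limma with no filter). H2-Oa, the alpha chain of H2-O, averaged 1.07 ± 0.290 FPKM with propionic acid and 0.800 ± 0.257 FPKM in controls, and H2-Eb2 averaged 0.151 ± 0.0550 FPKM with propionic acid and 0.0831 ± 0.0586 FPKM in controls (SD, n = 4 each). Both overlapped between the groups, did not reach the filter and were named after their values were seen, and H2-Eb2 rests on 5 to 37 recovered reads. Of all 25378 genes in the table, 1.91% had groups without overlap and higher values with propionic acid, and 0.891% lower values.

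Enzymes that cut antigen and the invariant chain differed in direction. Cathepsin L (Ctsl), which cuts the invariant chain, averaged 280.5 ± 71.0 FPKM in propionic acid skin and 242 ± 34.7 FPKM in control skin (SD, n = 4 each, limma adjusted p = 0.887). Cathepsin S (Ctss), which trims the invariant chain, averaged 299.8 ± 91.9 FPKM in propionic acid skin and 391 ± 74.5 FPKM in control skin (SD, n = 4 each). Legumain (Lgmn), an endosomal protease, averaged 142 ± 28.7 FPKM with propionic acid and 212 ± 91.2 FPKM in controls, and Ifi30, a thiol reductase that opens disulfides of antigens, 144 ± 26.6 FPKM with propionic acid and 152 ± 26.1 FPKM in controls. The membrane proteins Lamp1 and Lamp2 averaged 310.2 ± 32.1 and 73.2 ± 5.18 FPKM in propionic acid skin and 389 ± 73.2 and 84.5 ± 3.95 FPKM in control skin (limma adjusted p = 0.82 and 0.802). None of these passed, and only Lamp2 had groups without overlap. Ctsl, Ctss, Lgmn and Ifi30 were named after their values were seen. The RFX subunit Rfx5, part of the factor on the X box, averaged 1.42 ± 0.321 FPKM with propionic acid and 1.49 ± 0.165 FPKM in controls.

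MHC class I, the other presentation pathway, had 17 genes tested. Of these 10 were higher and 7 lower in mean log2 value, with a median log2 fold change of 0.01, and 0 had an unadjusted p under 0.05 in limma. The class I heavy chain H2-K1 averaged 600.1 ± 76.0 FPKM in propionic acid skin and 559 ± 48.3 FPKM in control skin, a log2 difference of 0.10 with a 95% confidence interval of -0.20 to 0.40. Its light chain B2m had a log2 fold change of 0.04 (-0.34 to 0.42) and Nlrc5, the class I counterpart of Ciita, one of -0.08 (-0.47 to 0.31). The smallest p values belonged to H2-Q7, Erap1 and H2-Q4, at 6.72 ± 1.55, 9.69 ± 1.82 and 79.6 ± 11.2 FPKM in propionic acid skin and 5.78 ± 1.35, 11.1 ± 2.56 and 73.5 ± 12.5 FPKM in control skin (SD, n = 4 each, limma adjusted p = 0.889, 0.895 and 0.906). Whether class II and class I differed in their response was not tested.

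Interferon gamma is the classical inducer of Ciita. In its arm 10 genes were tested, of which 2 were higher and 8 lower in mean log2 value, with a median log2 fold change of -0.25. Cxcl9, a T cell chemokine that interferon gamma induces, had 9.83, 14.0, 13.2 and 14.5 FPKM in propionic acid skin and 44.4, 22.0, 22.4 and 15.4 FPKM in control skin, without overlap (log2 fold change -0.87, SE 0.27, limma adjusted p = 0.603). Its relative Cxcl10 averaged 12.8 ± 1.68 FPKM with propionic acid and 21.8 ± 9.73 FPKM in controls, and the GTPase Gbp2 30.0 ± 4.42 FPKM with propionic acid and 45.1 ± 18.6 FPKM in controls (limma adjusted p = 0.786 and 0.815).

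Of 16 listed dendritic cell genes 12 were tested, Cd209a included, of which 8 were higher and 4 lower in mean log2 value, with a median log2 fold change of 0.11. Flt3l, the ligand of Flt3, had 9.05, 8.36, 10.4 and 9.35 FPKM in propionic acid skin and 6.76, 7.33, 4.10 and 4.36 FPKM in control skin, without overlap. Its log2 fold change was 0.66 with an SE of 0.17 (limma unadjusted p = 0.00387, adjusted p = 0.476). Batf3, a transcription factor that cross-presenting (type 1) dendritic cells require, had 7.86, 4.08, 5.53 and 7.71 FPKM in propionic acid skin and 2.80, 4.55, 1.83 and 2.80 FPKM in control skin. Its log2 fold change was 0.87 with an SE of 0.24 (limma adjusted p = 0.488). The integrin Itgax (CD11c) differed by 0.46 on the log2 scale (SE 0.20, limma adjusted p = 0.786).

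Xcr1 and Clec9a, the surface receptors that define the same type 1 dendritic cells, did not reach the filter. They were picked once their values had been seen. Xcr1 had 0.751, 0.915, 0.997 and 1.64 FPKM in propionic acid skin and 0.196, 0.520, 0.0225 and 0.356 FPKM in control skin. Clec9a had 0.614, 0.480, 0.597 and 0.693 FPKM in propionic acid skin and 0.227, 0.318, 0.0304 and 0.147 FPKM in control skin. Neither gene's groups overlapped, and the low values rest on as few as 4 recovered reads for each gene in control replicate 3, against 134 to 295 reads for Xcr1 in propionic acid libraries. In limma with no filter their adjusted p was 0.701 and 0.627. Irf8 and Itgae, of the same dendritic cell list and also named after their values were seen, did not share this pattern. Their log2 fold changes were 0.15 and -0.23 (limma adjusted p = 0.9 and 0.877), and their groups overlapped.

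Clec10a, a lectin of macrophages and type 2 dendritic cells, was lower, with 146, 82.4, 119.7 and 198 FPKM in propionic acid skin and 285, 269, 317 and 176 FPKM in control skin (log2 fold change -0.97, SE 0.27, limma adjusted p = 0.489). Only propionic acid replicate 4 exceeded any control mouse. Its mouse paralog Mgl2, named after its values were seen, averaged 117 ± 35.4 FPKM with propionic acid and 113 ± 43.9 FPKM in controls.

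Genes of dendritic cell maturation and migration were split in direction. Of 10 tested, 5 were higher and 5 lower, with a median log2 fold change of 0.09. The 5 lower genes, named after their values were seen, were Cd40, Cd83, Cd86, Cd80 and Relb. Their log2 fold changes were -0.41, -0.24, -0.09, -0.08 and -0.01, and none passed the test. Ccr7, the receptor that takes dendritic cells to lymph nodes, had 2.15, 2.33, 3.66 and 4.92 FPKM in propionic acid skin and 2.42, 1.1, 1.19 and 1.97 FPKM in control skin (limma adjusted p = 0.725). Its ligand Ccl19 had 4.23, 7.73, 7.78 and 7.36 FPKM in propionic acid skin and 2.20, 4.35, 1.9 and 1.80 FPKM in control skin, with a log2 fold change of 1.15 (SE 0.24, limma unadjusted p = 0.000967, adjusted p = 0.348). Ccl22, a chemokine of mature dendritic cells, averaged 10.1 ± 3.45 FPKM in propionic acid skin and 5.90 ± 2.19 FPKM in control skin (SD, n = 4 each, limma adjusted p = 0.77).

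**Figure D3:**
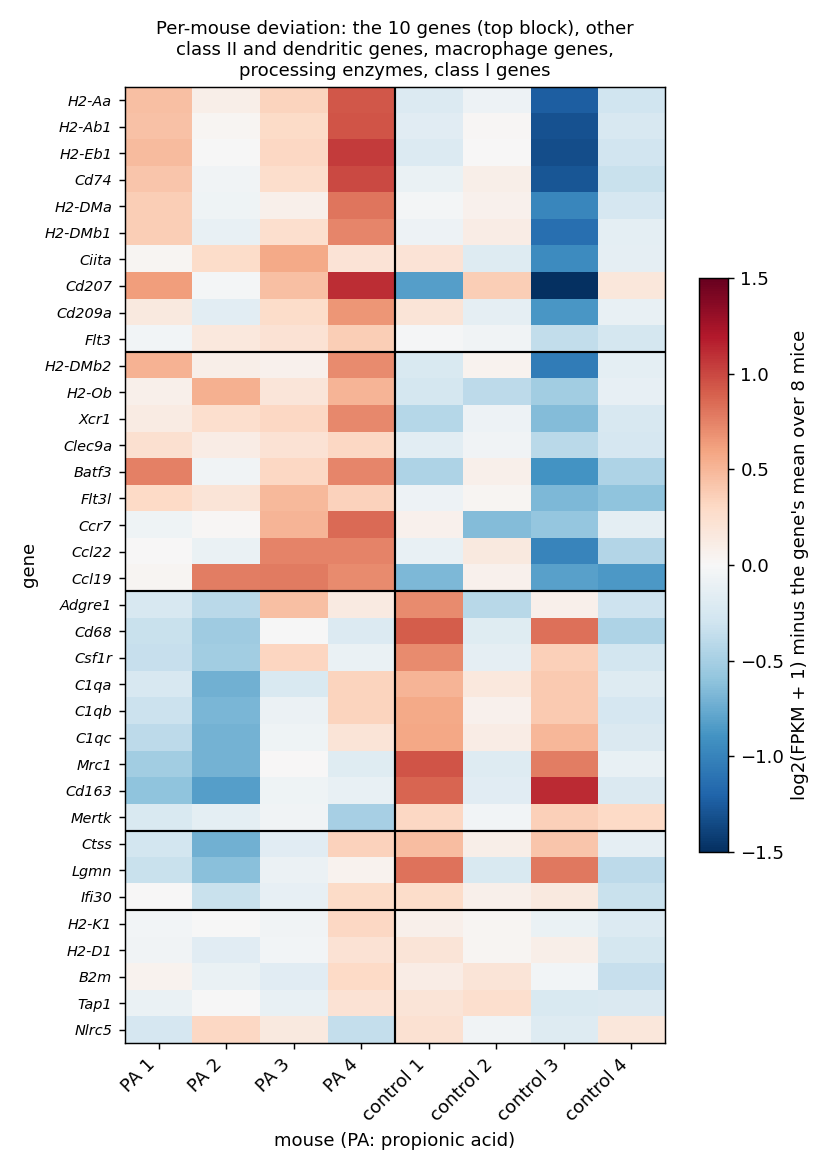
Deviation of each gene's log2(FPKM + 1) from its own mean over the 8 mice (colour, red above and blue below), with propionic acid (PA) mice on the left and control mice on the right; rows are the 10 genes, other class II and dendritic cell genes, macrophage genes, antigen-processing enzymes and class I genes. Control replicate 3 is the bluest column in the top block, and most macrophage rows are reddest in control replicates 1 and 3.

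Macrophages also carry class II. Of 14 macrophage and monocyte genes tested, 2 were higher and 12 lower in mean log2 value, with a median log2 fold change of -0.36. Their summed level was 1661 to 2907 FPKM in propionic acid skin and 2224 to 3552 FPKM in control skin. Mertk, a receptor for dying cells, had 3.47, 3.76, 4.05 and 2.71 FPKM in propionic acid skin and 5.50, 4.11, 5.74 and 5.45 FPKM in control skin, without overlap (log2 fold change -0.46, SE 0.14, limma adjusted p = 0.534). Cd163, a haemoglobin scavenger receptor, averaged 44.9 ± 11.5 FPKM with propionic acid and 84.3 ± 39.4 FPKM in controls, while the monocyte receptor Ccr2 was the other way, at 15.9 ± 2.01 FPKM with propionic acid and 10.3 ± 4.02 FPKM in controls (limma adjusted p = 0.77 and 0.746). H2-Ab1 stood at 1.60 to 2.09 times the FPKM of the macrophage complement gene C1qb in propionic acid mice and at 0.378 to 1.24 times in control mice. This ratio was chosen after its values were seen and was not tested.

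Markers of other cells that could carry or read class II were as follows. The 7 B cell markers summed to 2.09 to 5.05 FPKM in propionic acid skin and 2.08 to 3.23 FPKM in control skin, and Ms4a1, Cd79a and Pax5 were each at 0 in at least 1 library. Of these, Cd79b alone was tested, at 1.22 ± 0.419 FPKM with propionic acid and 0.758 ± 0.431 FPKM in controls (SD, n = 4 each, limma adjusted p = 0.828). The 7 measured T cell markers summed to 34.9 to 51.3 FPKM in propionic acid skin and 30.6 to 64.8 FPKM in control skin. The 6 markers of all leukocytes summed to 307 to 471 FPKM in propionic acid skin and 327 to 563 FPKM in control skin, and the leukocyte antigen Ptprc averaged 15.6 ± 3.70 FPKM with propionic acid and 15.4 ± 5.15 FPKM in controls. H2-Ab1 stood at 26.0 to 52.0 times the FPKM of Ptprc in propionic acid mice and at 12.8 to 37.7 times in control mice, which overlap. The 9 keratinocyte markers summed to 6948 to 10031 FPKM in propionic acid skin and 6866 to 10048 FPKM in control skin. The 7 fibroblast markers summed to 2108 to 3619 FPKM in propionic acid skin and 1810 to 4000 FPKM in control skin. The 7 endothelial markers summed to 89.5 to 156 FPKM with propionic acid and 99.7 to 215 FPKM in controls, and the 5 plasmacytoid dendritic cell markers to 34.1 to 56.7 FPKM with propionic acid and 38.5 to 75.4 FPKM in controls. These sums overlapped between the groups, and their part in the class II values was not tested.

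Control replicate 3 was the lowest of the 8 mice for all 10 genes, which held for 18.5% of all genes tested, and propionic acid replicate 4 was the highest for 9 of the 10, which held for 14.8%. Without control replicate 3 the log2 fold change was 0.65 for H2-Aa, 0.56 for H2-Ab1, 0.62 for H2-Eb1 and 0.52 for Cd74. It was 0.37 for H2-DMa, 0.35 for H2-DMb1, 0.31 for Ciita and 0.25 for Cd209a. Without both control replicate 3 and propionic acid replicate 4, chosen after their values were seen, it was 0.48 for H2-Aa, 0.38 for H2-Ab1, 0.32 for Cd74 and 0.11 for Cd209a. In each of these cases all 10 genes still had a higher mean log2 value in propionic acid skin. When control replicate 3 was left out, 3 of the 9 tested genes had an unadjusted limma p under 0.05, against 441 of all 12536 genes tested (277 higher). When propionic acid replicate 4 was left out, 2 of the 9 did, against 590 of all 12516 genes tested (359 higher).

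**Figure D4:**
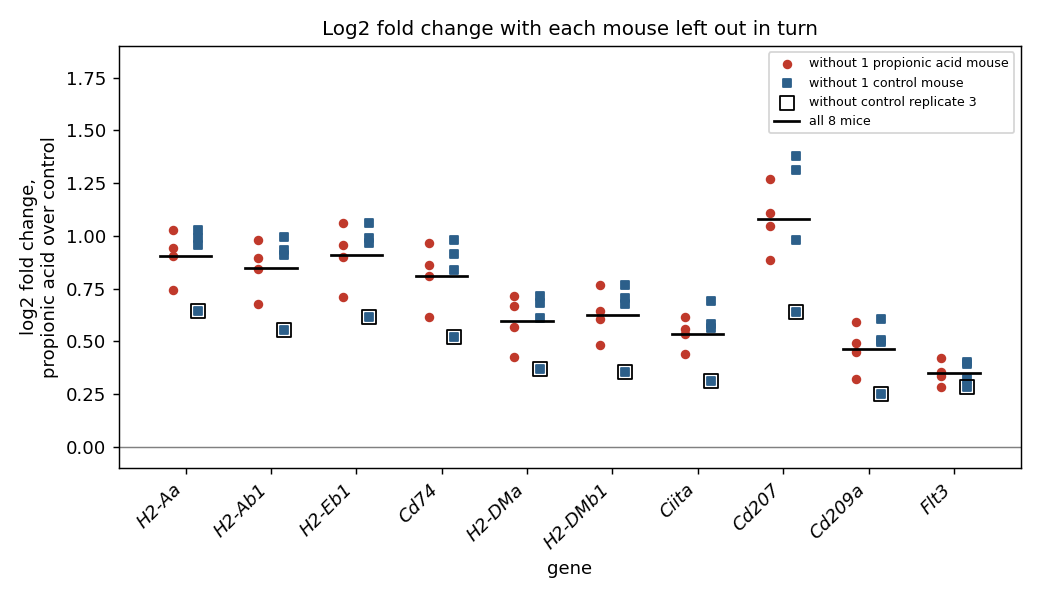
Log2 fold change of propionic acid over control for each of the 10 genes with all 8 mice (black bar) and with 1 mouse left out, a propionic acid mouse (red circles) or a control mouse (blue squares). All values lie above 0, and the value without control replicate 3 (open square) is the lowest of the 8 for the 9 tested genes.

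The tested genes whose pattern over the 8 mice was nearest to the mean log2 level of H2-Aa, H2-Ab1, H2-Eb1 and Cd74, leaving out the 10 genes and clone names, were Gzmc, Ckb, H2-DMb2, Tmem208, Kctd2 and Hnrnph3. Pearson r was 0.980 for Gzmc (granzyme C), 0.979 for Ckb (brain-type creatine kinase) and 0.978 for H2-DMb2, with Spearman rho of 0.976, 1.00 and 0.952. Without control replicate 3 and propionic acid replicate 4, r over 6 mice was 0.917, 0.861 and 0.875. For Tmem208, Kctd2 and Hnrnph3 r was 0.974, 0.973 and 0.968 over 8 mice. Of 12598 genes tested, 89 (0.706%) had an r of 0.9 or more over 8 mice, among them Cd207 (0.927) and Cd209a (0.936). These 89 also include H2-Aa, H2-Ab1, H2-Eb1 and Cd74, which make up the mean itself. An r this high was not confined to class II genes. These values describe likeness of pattern, and no p is given.

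In GRCm38, the assembly also called mm10, 5 of the 10 genes lie in the MHC on chromosome 17: H2-DMa from 34119541 to 34139101, H2-DMb1 from 34153072 to 34160230, H2-Ab1 from 34257689 to 34269419, H2-Aa from 34282744 to 34287823 and H2-Eb1 from 34305867 to 34316674. Cd74 is at chromosome 18, 60803848 to 60812652, Ciita at chromosome 16, 10480059 to 10528418, and Cd207 at chromosome 6, 83671215 to 83677857. Cd209a is at chromosome 8, 3743397 to 3748984, and Flt3 at chromosome 5, 147330741 to 147400489. GENCODE vM21 lists each as a protein-coding gene. H2-DMa overlaps Brd2 on the other strand, Ciita overlaps Dexi, and H2-Eb1 and Flt3 each overlap an antisense gene, and since the strand setting of the counting is not given in the sources used here, reads of such pairs cannot be told apart.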

How the data were processed

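FPKM values were deposited by the authors in 1 table of 25378 genes and 8 libraries, 4 propionic acid and 4 control. The submitters' processing notes name the mm10 build, HISAT2 2.1.0, cutadapt and CASAVA. How reads were counted, and with which annotation or strand setting, is not given in the sources used here. Total RNA was extracted with TRIzol and libraries were made with a VAHTS Universal V6 kit, per the labels' protocols. Columns were matched to samples by treatment and replicate number.

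FPKM is not a count, so values were taken as log2(FPKM + 1), which understates fold changes of low genes. Genes at 1 FPKM or more in at least 4 libraries (12598) entered a limma fit (version 3.58.1, R 4.3.3) with group as the only term, a trend on mean level and robust moderation. P-values are 2-sided and adjusted by Benjamini-Hochberg over all genes tested, with a threshold of 0.05. The step was checked on simulated data. A gene's FPKM values, once each library is scaled by its own factor, are whole multiples of what 1 read is worth, so whole reads were recovered for all 25378 genes within 0.01 of a read (largest distance 9.22e-05). They give the depth behind a value, for counting error only. If a gene's true counts shared a divisor, its reads here are too few by that factor. Voom on these reads was an alternative.

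The 10 genes and the 19 lists of related genes (174 distinct symbols, 170 in the table) were chosen with earlier results of these data known. The text names the 10 genes, for each other list the 3 tested genes with the smallest p where none passed, and the 6 genes nearest in pattern. Those of the T cell, leukocyte, stromal, fat, muscle and plasmacytoid lists are given as sums only. Other genes are said to be chosen after their values were seen, or, as Cd209d, Cd209e, Epcam, Il34, Rfx5, H2-K1, B2m, Nlrc5, Itgax, C1qb and Ptprc, were taken for their roles, with values known. Ratios within a mouse were compared by exact permutation over 70 regroupings, and with the replicate block by sign flips of the same-numbered differences. No 2 libraries were identical. Alternatives were another pseudocount, no filter, median-of-ratios scaling, quantile normalization, weights per library, voom, the replicate number as a block, and leaving out mice. Promoters are RefSeq windows in GRCm38.p6, and gene positions are from GENCODE vM21.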

Additional observations from a re-analysis of the deposited data

Results flagged for a closer look

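In the propionic acid group, the log2 ratio of Cd207 to H2-Ab1 held 1 mouse far from the others: replicate 2, at -5.38, against -5.13 to -5.16 in the other 3. The gap was 0.870 of the group's whole range, above the 95% critical value of Dixon's test for 4 samples. The control values, at -4.91 to -5.98, were spread more widely than this gap. Chance flags about 1 in 20 such groups, and 26 groups were examined. Propionic acid replicate 2 also had the lowest level of the 4 class II chains in its group.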

How the results depend on the processing

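The direction of the 10 genes held throughout: in 153 of 153 alternative values for the 9 tested genes the log2 fold change was positive, 0 had an adjusted p under 0.05, and the lowest adjusted p was 0.214, for H2-Aa with weights per library. All 10 had a higher mean log2 value under each setting in which all 10 could be computed. These settings re-use the same mice and are not independent checks. Dropping the filter and adding the replicate block leave a gene's log2 fold change unchanged by construction. The count of genes called across the table was 0 with all mice, 1 with weights per library (Ucp3) and 0 to 2 with each mouse left out (1 without control replicate 2 and 2 without control replicate 3), none of them among the 10. Median-of-ratios scaling gave 418 higher and 370 lower genes with an unadjusted p under 0.05, against 513 and 279, and a median log2 fold change of all genes of -0.01, against 0.01. Control replicates 1 and 3 had the lowest Cd207 of all mice, so leaving out both moves the ratios with Cd207 by construction. Without them, the differences in the log2 ratio of Cd207 to H2-Ab1 (0.23 with all mice) and of Cd209a to Cd207 (-0.61) reversed. They were then -0.26 and 0.0824, and their cause was not tested. With each mouse left out these ranged from 0.05 to 0.40 and from -0.88 to -0.38, and that of Cd74 to H2-Ab1 from -0.07 to -0.02. The log2 difference of Flt3 was 0.67 with a pseudocount of 0.1, against 0.35.

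The replicate numbers are shared between groups, and no sign that they pair the mice was seen. After each gene's group mean was subtracted, same-numbered mice correlated at -0.319, -0.081, 0.2 and -0.117 over all tested genes. By this measure 0 of 4 propionic acid mice correlated best with their own number. With so few mice these values cannot settle whether the mice were paired. With the replicate block, 0 genes were called and 7 of the 9 tested genes had an unadjusted limma p under 0.05, all higher. Of all 12598 genes tested, 700 had such a p in that fit, 431 higher and 269 lower. The differences in the 3 ratios are by construction unchanged by the block, at 0.23, -0.61 and -0.04. Flipping the signs of the 4 same-numbered differences gave exact p of 0.5, 0.375 and 0.625. With 4 differences this sign-flip test cannot give a p under 0.05, so it decides nothing here.

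Depth limits the B cell markers, of which Ms4a1, Cd79a and Pax5 had 0 recovered reads in at least 1 library, and Xcr1 and Clec9a, at 4 recovered reads each in control replicate 3, while the chains had 7352 to 99455 recovered reads per library.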
